A study of Mus musculus with 53 samples.

Results

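The proneural and neuronal bHLH factors are transcription factors with a basic helix-loop-helix domain that drive progenitors towards the neuronal fate or act in the neurons that result. Those described here are 9 genes of 37991 listed, fixed by name: the neurogenins Neurog1, Neurog2 and Neurog3, the NeuroD genes Neurod1, Neurod2, Neurod4 and Neurod6, Atoh1 and Bhlhe22. All 9 were found by symbol. Messenger RNA was sequenced from cerebral cortex of untreated C57bl/6 mouse embryos at E16.5, which the labels describe as tissue with no stimulation, without naming a transgene or other allele. The labels assign 3 libraries to this group, out of 53 in the series, and do not say whether each came from its own animal or from pooled embryos. The other 50 libraries, of cultured neurons and astrocytes and of adult hippocampus, are not analysed here, so no condition is compared with another. The series was made to study histone turnover in the expression changes that follow neuronal stimulation or enrichment, a question on which nothing below bears.

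The level of each gene is 1 authors' mean in RPKM, the reads of a gene relative to its length in kilobases and to the M reads of the library. With a mean alone no SD, n per value or p can be given, and whether any of the levels below differ beyond the spread between libraries was not testable. The steps between low values of the file put the depth of the libraries at 51.3, 64.8 and 71.6 M reads, a sum of 188 M reads. From these, reads per gene were estimated, and each interval of a level below is a 95% exact Poisson interval on them. Intervals of ratios between genes use a normal approximation on the log of the ratio, at the same 95%. Both kinds cover counting error only. The kilobases counted were those of the whole gene with its introns, so levels are also given per kilobase of exon, from the same reads. In bulk tissue fewer cells of a type and less RNA per cell cannot be told apart.

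bHLH factors bind DNA as dimers at E-boxes, short sites with the letters CANNTG, which the basic region contacts. The tissue-specific factors described here pair with the broadly expressed E proteins. Id proteins hold E proteins in dimers that cannot bind DNA, and Hes and Hey proteins, most of them targets of Notch, repress proneural genes in progenitors. In the dorsal telencephalon neurogenins act in progenitors that leave the cell cycle, while Neurod and Bhlhe22 factors act largely in the young and maturing projection neurons.

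The coding sequences of the bHLH domain show how far these genes differ, and so whether reads of 1 could be counted for another. The stretches below, from GENCODE M21 transcripts, run 5′ to 3′ from the basic region into the second helix. Each is 153 bases long, and capitals mark the bases that differ from Neurod6, the gene with the highest level. Neurod2 is shown as the next in level, Neurod1 as its closest relative in sequence, Neurog2 and Neurog1 as relatives far apart in level, and Atoh1 as a gene listed at 0.
Neurod6: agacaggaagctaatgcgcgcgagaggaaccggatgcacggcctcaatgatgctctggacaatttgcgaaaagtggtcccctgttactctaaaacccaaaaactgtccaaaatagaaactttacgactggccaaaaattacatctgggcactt
Neurod2: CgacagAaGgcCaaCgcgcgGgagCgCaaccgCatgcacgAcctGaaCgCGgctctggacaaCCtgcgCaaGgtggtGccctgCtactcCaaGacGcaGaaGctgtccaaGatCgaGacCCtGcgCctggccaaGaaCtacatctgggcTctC
Neurod1: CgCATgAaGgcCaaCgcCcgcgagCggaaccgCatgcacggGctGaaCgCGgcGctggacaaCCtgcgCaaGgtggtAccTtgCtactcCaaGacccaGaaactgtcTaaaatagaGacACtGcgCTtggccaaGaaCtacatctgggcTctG
Neurog2: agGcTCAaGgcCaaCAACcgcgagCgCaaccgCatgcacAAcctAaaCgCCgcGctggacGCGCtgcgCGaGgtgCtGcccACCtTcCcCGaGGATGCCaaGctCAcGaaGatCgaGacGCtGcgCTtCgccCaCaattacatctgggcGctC
Neurog1: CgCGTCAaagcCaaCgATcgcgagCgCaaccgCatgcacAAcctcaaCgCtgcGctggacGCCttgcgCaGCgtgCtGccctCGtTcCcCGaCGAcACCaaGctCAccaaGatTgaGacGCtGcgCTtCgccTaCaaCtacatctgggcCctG
Atoh1: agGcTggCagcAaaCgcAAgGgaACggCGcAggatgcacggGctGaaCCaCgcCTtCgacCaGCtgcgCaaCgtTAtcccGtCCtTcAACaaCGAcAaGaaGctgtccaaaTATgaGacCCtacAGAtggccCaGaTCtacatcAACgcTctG
Neurod2 differed from Neurod6 at 36 bases (76.5% identity), Neurod1 at 38, Neurog1 at 55, Atoh1 at 59 and Neurog2 at 60 bases. Identity among the 28 pairs of equal length ran from 56.2% for Neurog3 and Atoh1 to 87.6% for Neurod1 and Neurod2. Neurog1 and Neurog2 shared 84.3%. Bhlhe22, with a stretch of 159 bases and a longer loop, could not be set against the others base by base.

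Over whole transcripts, the longest run of bases that any 2 of the 9 genes had in common was 26, in Neurog1 and Neurog2. The other 35 of 36 pairs shared shorter runs, down to 10 bases. For 7 genes, none of the 50-base windows of the transcript occurred in a transcript of another gene on either strand. The exceptions were Neurog3, with 15.4% of its windows also in Fam241b, and Neurod1, with 9.66% in Cerkl or Gm26755. Both overlap those genes in the genome. The read length and the treatment of reads that overlap several genes are not given in the sources used here.

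The NeuroD genes of differentiating neurons had the highest levels. Neurod6 (ENSMUSG00000037984, chromosome 6), a factor of cortical projection neurons, stood at 194 RPKM (interval 193 to 195), from an estimated 125101 reads. Neurod2 (ENSMUSG00000038255, chromosome 11), which acts in the maturation and synapses of the same neurons, stood at 109 RPKM (108 to 109). Neurod6 was 34th and Neurod2 78th among all genes listed, at percentiles 99.9 and 99.7 of genes above 0.

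Neurod6 exceeded Neurod2 1.78-fold as deposited, with a counting interval of 1.77 to 1.80. Per kilobase of exon they stood at 310 and 146, a ratio of 2.12, and by reads with no length at 667 and 460 RPM (reads scaled to M reads), a ratio of 1.45. The order of this pair was the same on each of these 3 scales, while its size was not.

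Bhlhe22 (ENSMUSG00000025128, chromosome 3), a repressor that acts in postmitotic cortical neurons, was the third highest at 84.3 RPKM (83.6 to 85.0), 111th of all genes. As it has 1 exon, its level per kilobase of exon is the same. Neurod2 was 1.29-fold above it as deposited, and by exon length 1.74-fold. These 3 genes were the ones above 50 RPKM, a level that 0.487% of all genes listed reached. Together they held 90.6% of the summed RPKM of the 9 genes, 91.5% per kilobase of exon and 92.2% of the reads.

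**Figure D1:**
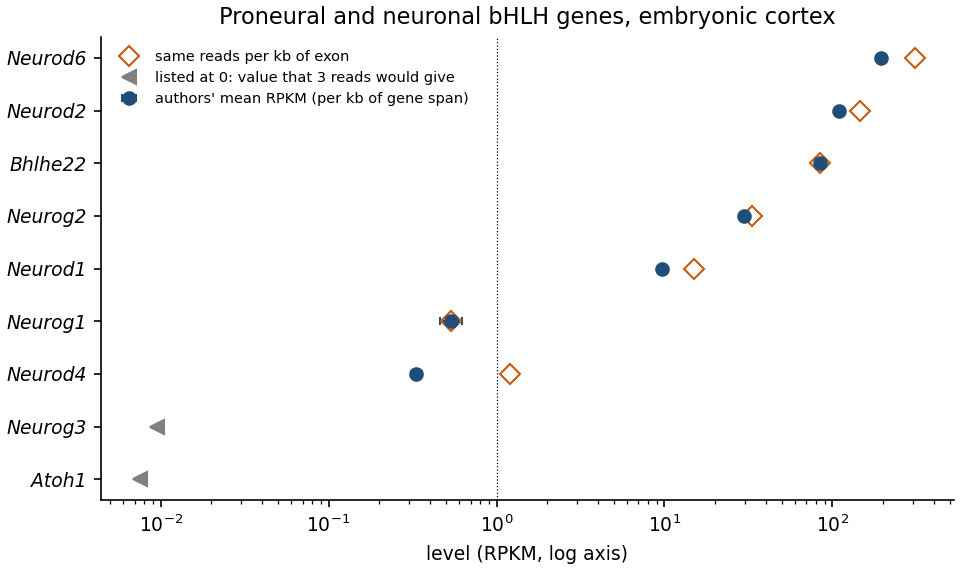
Level of each of the 9 genes in RPKM on a log axis, as deposited (filled circles, bars for the 95% counting interval) and per kilobase of exon (open diamonds). Neurod6, Neurod2 and Bhlhe22 lie at 84.3 RPKM or above as deposited, and Neurog3 and Atoh1 (triangles at the level that 3 reads would give) are listed at 0.

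The progenitor factor Neurog2 came next. Neurog2 (ENSMUSG00000027967, chromosome 3), which drives dorsal telencephalic progenitors into the glutamatergic fate, stood at 29.7 RPKM (29.2 to 30.2), 307th of all genes. Per kilobase of exon it stood at 33.3. Bhlhe22 was 2.84-fold and Neurod6 6.52-fold above Neurog2 as deposited. Per kilobase of exon these ratios were 2.53 and 9.31.

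Neurod1 (ENSMUSG00000034701, chromosome 2), known in the intermediate progenitors and new neurons that follow Neurog2, stood at 9.61 RPKM (9.39 to 9.82), 1053rd of all genes. Per kilobase of exon it stood at 14.9. Neurog2 was 3.09-fold above Neurod1 as deposited, and by exon length 2.24-fold. Neurod2, the nearest relative of Neurod1 in the domain sequences above, was 11.3-fold above Neurod1, and 9.83-fold per kilobase of exon. In GENCODE M21 Neurod1 lies wholly within the span of Cerkl on the same strand, which was listed at 0.00237 RPKM. A noncoding gene on the other strand, Gm26755, covers 65.4% of the span of Neurod1 and was not among the genes listed.

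The other 4 genes were at low levels or at 0. Neurog1 (ENSMUSG00000048904, chromosome 13), which acts with Neurog2 in cortical progenitors and in sensory neurons, stood at 0.537 RPKM (0.459 to 0.624), an estimated 170 reads. Neurog2 was 55.3-fold above it, with a counting interval of 47.6 to 64.4, and 62.0-fold per kilobase of exon. The 2 neurogenins whose domains share 84.3% of bases thus had levels far apart in this tissue.

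Neurod4 (ENSMUSG00000048015, chromosome 10), a factor of retinal and other neural precursors, stood at 0.334 RPKM (0.310 to 0.358). It is the longest of the 9 genes, with a span of 12089 bases and 3345 bases of exon. Neurod4 had more reads than Neurog1, an estimated 757 against 170, but a lower RPKM. Neurog1 was 1.61-fold above Neurod4 as deposited, whereas Neurod4 was 2.25-fold above Neurog1 per kilobase of exon, at 1.21 against 0.537. The order of these 2 neighbours therefore turned with the length used, and it was the only change of order among the 7 detected genes between those scales.

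Neurog3 (ENSMUSG00000044312, chromosome 10), which founds the endocrine cells of the pancreas, and Atoh1 (ENSMUSG00000073043, chromosome 6), the factor of the rhombic lip and of hair cells, were listed at 0. At this depth 3 reads, the limit that a count of 0 allows, would give 0.00955 RPKM for Neurog3 and 0.00754 RPKM for Atoh1. The 95% exact Poisson interval used for the other genes, which is wider because it is two-sided, ends at 0.0117 and 0.00927 RPKM. Neurod4, the lowest detected gene of the 9, stood well above these limits. Of all genes listed, 35.7% were at 0, and of protein-coding genes 15.3%. None of 12 genes used in every cell was listed at 0, the lowest being Hprt at 0.649 RPKM.

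Neurog3 lies wholly inside Fam241b, a gene on the opposite strand listed at 0.888 RPKM. Of 448 protein-coding genes inside another on the opposite strand, 62 were listed at 0 (13.8%), and their median was 0.0792 RPKM. Of 183 inside another on the same strand, as Neurod1 is, 37 were (20.2%), with a median of 0.0407 RPKM. Of the 19599 inside no other, 2991 were (15.3%), with a median of 0.221 RPKM. These values of whole classes do not tell how reads of Neurog3 or Neurod1 were counted. Atoh1 overlaps no annotated gene.

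Counted together, 5 of the 9 genes reached 1 RPKM: Neurod6, Neurod2, Bhlhe22, Neurog2 and Neurod1. Of all genes listed 18.8% did so, of protein-coding genes 31.6%, and of protein-coding genes with 1 or 2 exon blocks, as all 9 have, 22.5%. Per kilobase of exon 6 of 9 reached 1, with Neurod4 added, against 35.4% of all genes with a length and 54.0% of protein-coding genes. The median of the 9 was 9.61 RPKM and that of the 7 above 0 was 29.7, where all genes listed had 0.0140 and all those above 0 had 0.196. The spread within the set was wide, from 0 to the 34th place of all genes, so no single level describes it.

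**Figure D2:**
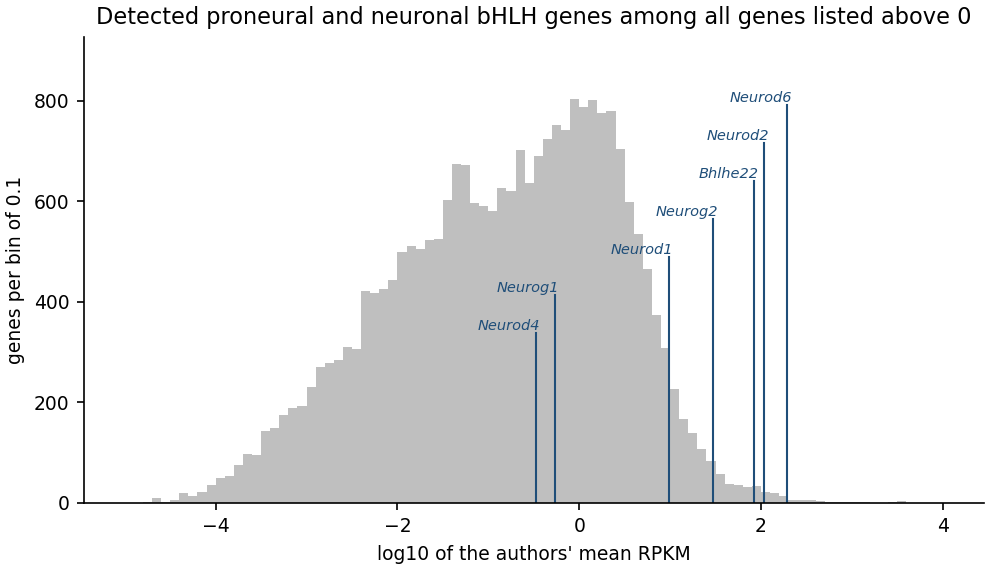
Number of genes (vertical axis, bins of 0.1) by log10 of the authors' mean RPKM for all 24426 genes listed above 0, with the 7 detected genes as vertical lines. Neurod6, Neurod2, Bhlhe22, Neurog2 and Neurod1 lie in the right tail, and Neurog1 and Neurod4 in the body of the distribution.

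The genes share a compact structure, which bears on these levels. All 9 have 1 or 2 exon blocks, with spans of 1674 bases (Neurog3) to 12089 (Neurod4) and a median of 3344, against 18713 bases and 8 exon blocks for the median protein-coding gene. A level per kilobase of exon exceeded the deposited one by a median factor of 1.12 for the 9 genes and of 5.06 for protein-coding genes. Each of the 7 detected genes ranked higher among all genes listed on the deposited scale than, per kilobase of exon, among the 32938 genes with a length. Neurod6 moved from 34th to 51st, Neurod2 from 78th to 129th, Bhlhe22 from 111th to 290th, Neurog2 from 307th to 1028th and Neurod1 from 1053rd to 2844th. Spans in GENCODE M21 were 0.860 (Neurog2) to 1.06 (Neurod1) times those in RefSeq, so the reads estimated for Neurog2 depend on the model by that much.

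**Figure D3:**
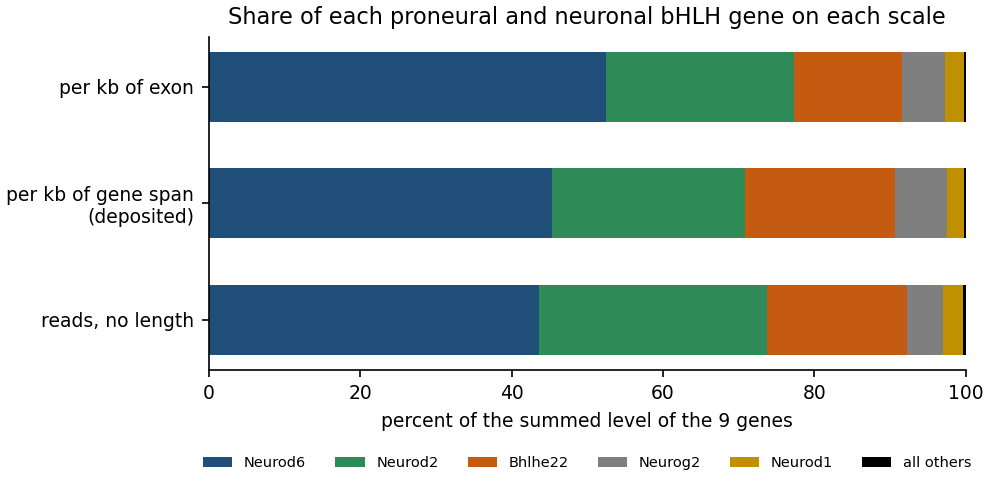
Share of each gene, in percent, in the summed level of the 9 genes by reads, as deposited and per kilobase of exon (1 bar each). Neurod6 holds 43.6%, 45.4% and 52.5% and Neurod2 30.1%, 25.5% and 24.8%, while the neurogenins together hold 4.91%, 7.09% and 5.73%.

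The dimer partners and opponents of these factors were set beside them. For the counts of the lists that follow, 18.8% of all genes listed and 31.6% of protein-coding genes reached 1 RPKM. Of the E proteins, Tcf3 stood at 4.05, Tcf4 at 2.39 and Tcf12 at 0.4997 RPKM, a median of 2.39 RPKM with 2 of 3 at 1 RPKM. Their place turned with the scale. Per kilobase of exon Tcf4 stood at 30.2, Tcf3 at 24.2 and Tcf12 at 8.66. Their median of 24.2 was above the 14.9 of the proneural and neuronal factors on that scale. The scale takes all reads to lie in exons, and the share in introns was not tested. With reads in introns these levels would be lower. Exon length raised Tcf12 17.3-fold, Tcf4 12.6-fold and Tcf3 5.98-fold, against a median of 1.12-fold for the 9 genes. By reads Tcf4, a gene of long introns with a span of 345724 bases, had 828 RPM, more than the 667 RPM of Neurod6. On the deposited scale the median of the E proteins was the lower, at 2.39 against 9.61 RPKM.

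The Id inhibitors were all detected, and 4 of 4 reached 1 RPKM. Id2, present in upper-layer and other cortical neurons as well as progenitors, stood at 120 RPKM, between Neurod6 and Neurod2 in level both as deposited and per kilobase of exon (165). Id4 stood at 12.2, Id1 at 5.69 and Id3 at 3.59 RPKM. Their median as deposited was 8.93 RPKM, close to the 9.61 of the proneural and neuronal factors, but the spread between libraries behind either is unknown. Per kilobase of exon the medians were further apart, at 10.4 against 14.9.

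Of the Hes and Hey repressors 4 of 8 reached 1 RPKM, with a median of 1.13 RPKM. Hes6, which unlike its relatives promotes neuronal differentiation and is a target of neurogenins, stood at 25.7 RPKM, near the 29.7 of Neurog2. The Notch effectors of progenitors were lower: Hey1 stood at 3.87, Hes5 at 3.52 and Hes1 at 2.01 RPKM. Heyl stood at 0.254, Hes7 at 0.132, Hey2 at 0.131 and Hes3 at 0.00450 RPKM. Neurog2 was thus listed above each of these repressors as deposited, while Hes6 exceeded it per kilobase of exon, 36.4 against 33.3.

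**Figure D4:**
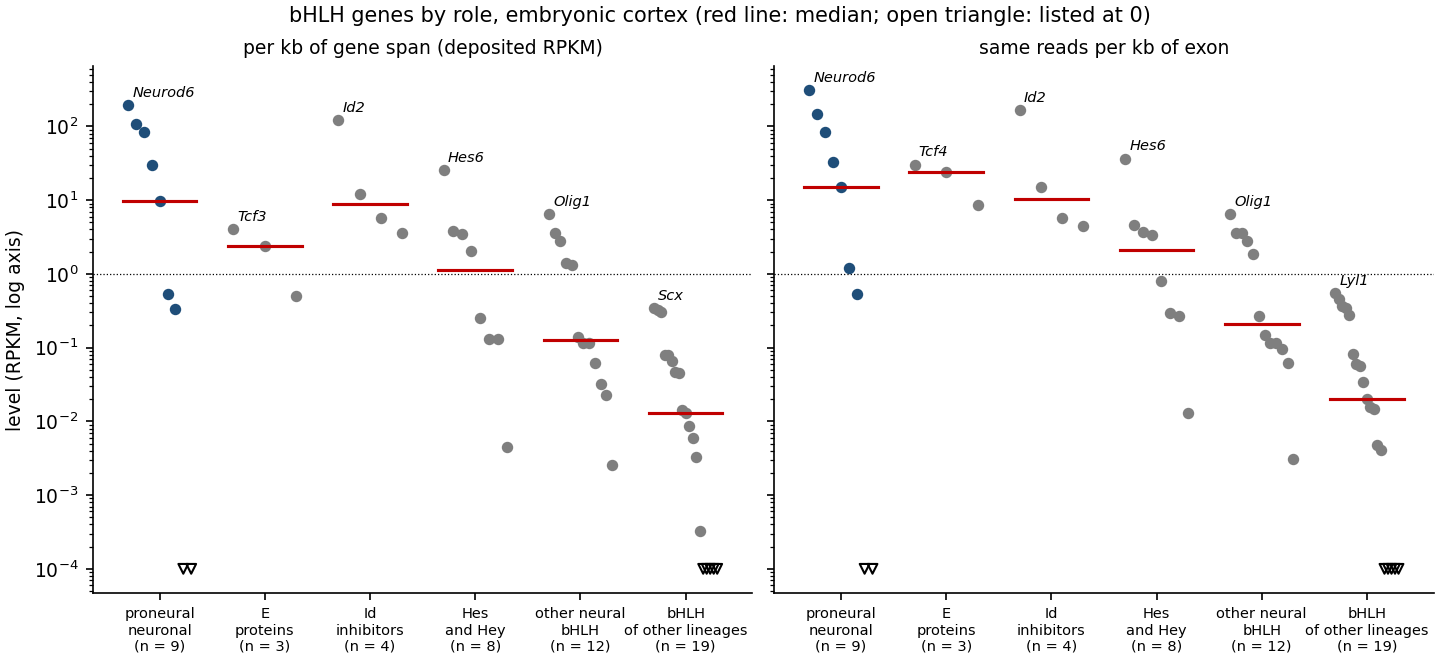
Levels of 55 bHLH genes by role on a log axis, as deposited (left) and per kilobase of exon (right), with the median of each list as a red line and open triangles for genes listed at 0. The median of the E proteins rises from 2.39 to 24.2 between the panels and that of the proneural and neuronal factors from 9.61 to 14.9.

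Other bHLH factors of the nervous system had a lower median, 0.127 against 9.61 RPKM, but not each was lower than each of the 9. All 12 such genes were above 0. Of them 5 reached 1 RPKM, and so stood above Neurog1, Neurod4, Neurog3 and Atoh1. The oligodendrocyte-lineage factor Olig1 stood at 6.50, Nhlh2, a factor of young neurons, at 3.64, and Olig2 at 2.81 RPKM, while the lowest, Ptf1a of the hindbrain and spinal cord, stood at 0.00253 RPKM, an estimated 1 read. Of 19 bHLH genes of other lineages, such as muscle, mesoderm and blood, 0 reached 1 RPKM, 5 were listed at 0, and the median was 0.0130 RPKM. The highest were Scx at 0.341, Mesp2 at 0.322 and Lyl1 at 0.302 RPKM, and the lowest detected was Twist2 at 0.000321 RPKM. Neurog1 stood above each of these 19 as deposited, whereas Neurod4, at 0.334, lay between Scx and Mesp2. The counting intervals of Scx (0.284 to 0.405) and Mesp2 (0.275 to 0.375) both hold the level of Neurod4, so counting error leaves the order of these genes unsettled. By exon length the order differed: Neurod4, at 1.21, lay above all 19, and Lyl1, at 0.546, inside the counting interval of Neurog1 (0.537, 0.459 to 0.624). Over all 55 bHLH genes the 9 described here held 67.9% of the summed RPKM and 64.5% per kilobase of exon. Neurod6 was 1st of the 55, Neurod2 3rd, Bhlhe22 4th, Neurog2 5th and Neurod1 8th.

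Genes known downstream of proneural factors or acting beside them in the cortex were detected throughout. Of 14 such genes 12 reached 1 RPKM, with a median of 10.3 RPKM. Of all genes listed 18.8% did so, and of protein-coding genes 31.6%. Per kilobase of exon all 14 reached 1, with a median of 26.2, against 35.4% of all genes with a length and 54.0% of protein-coding genes. A gene of this list is also among the 12 other neural bHLH genes above. The SoxC genes Sox4 and Sox11 of new neurons stood at 97.2 and 91.6 RPKM, and Insm1, of progenitors that divide away from the ventricle, at 27.8 RPKM. The lowest was the Notch ligand gene Dll3 at 0.608 RPKM. The list was drawn from textbook relations, and its levels in 1 tissue say nothing of which factor acts on which gene.

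The labelled tissue was checked against defining markers. The 5 genes of the dorsal telencephalon given here reached 1 RPKM, from Fezf2 at 27.0 to Emx1 at 1.82 RPKM. The 8 hindbrain and rhombic lip markers, the region where Atoh1 acts, reached at most 0.351 RPKM (Barhl2), with Hoxa2 and Hoxb2 listed at 0. The 6 pancreatic endocrine genes, where Neurog3 acts, reached at most 0.125 RPKM (Gcg), with Pdx1 and Ins1 listed at 0, and 4 eye and retina genes at most 0.00245 RPKM, with Rax and Crx listed at 0.

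Markers of other cells of the region were measured too. Ganglionic eminence and interneuron markers reached 1 RPKM in 4 of 6, up to 17.8 for Dlx1, with Gsx2 listed at 0. The 4 Cajal-Retzius markers ran from 0.234 to 0.786 RPKM, 3 endothelial ones from 0.133 to 17.3, 3 microglial ones from 0.274 to 0.942, 4 meningeal ones from 0.0223 to 0.436 and 4 globin genes of red blood cells from 16.7 to 53.6 RPKM. Several of these genes have long introns, and by exon length more of them reached 1. The count went from 0 to 3 of 4 for Cajal-Retzius markers and from 1 to 3 of 3 for endothelium. For microglia it went from 0 to 3 of 3. It stayed at 0 for meningeal, hindbrain, pancreatic and retinal markers. Of protein-coding genes 31.6% reached 1 as deposited and 54.0% by exon length. Reln stood at 15.2 by exon length. Cx3cr1, with a span of 168264 bases, stood at 10.2, C1qa at 2.62 and Csf1r at 1.92. These values take all reads to lie in exons, which was not tested. Spans of the marker genes were not set against RefSeq. The part of other cells in the levels of the proneural and neuronal factors was not tested.

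The start regions of these genes differ widely in sequence. RefSeq windows (GRCm38.p6) from 250 bases before to 50 after the start were found for 8 of the 9 genes. Those of Neurod6 and Neurod2, the highest in level, and of Atoh1, listed at 0 and overlapping no other gene, are printed to set these extremes side by side. They read 5′ to 3′ on the gene's strand, with E-boxes (CANNTG, a motif that reads alike on both strands) in capitals. The windows lie at chr6:55681214-55681513 on the minus strand for Neurod6, at chr11:98329596-98329895 on the minus strand for Neurod2 and at chr6:64728875-64729174 on the plus strand for Atoh1.
Neurod6: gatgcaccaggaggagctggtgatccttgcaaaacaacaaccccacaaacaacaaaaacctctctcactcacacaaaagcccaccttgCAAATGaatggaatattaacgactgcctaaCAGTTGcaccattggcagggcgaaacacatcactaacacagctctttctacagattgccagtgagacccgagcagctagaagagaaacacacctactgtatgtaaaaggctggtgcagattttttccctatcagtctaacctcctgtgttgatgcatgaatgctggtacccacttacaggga
Neurod2: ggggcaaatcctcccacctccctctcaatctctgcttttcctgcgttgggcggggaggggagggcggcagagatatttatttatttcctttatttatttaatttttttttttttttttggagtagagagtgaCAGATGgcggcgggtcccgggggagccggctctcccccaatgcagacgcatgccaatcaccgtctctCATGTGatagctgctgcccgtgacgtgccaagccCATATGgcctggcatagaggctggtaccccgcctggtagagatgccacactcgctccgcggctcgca
Atoh1: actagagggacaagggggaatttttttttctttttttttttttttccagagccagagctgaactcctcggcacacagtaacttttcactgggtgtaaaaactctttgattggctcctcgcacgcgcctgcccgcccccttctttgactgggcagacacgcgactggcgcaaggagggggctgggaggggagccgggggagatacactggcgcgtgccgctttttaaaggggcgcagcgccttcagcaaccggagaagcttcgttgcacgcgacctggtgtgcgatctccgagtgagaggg
The Neurod2 window held 3 E-boxes, that of Neurod6 held 2, and that of Atoh1 held 0. At least 1 stood in 6 of the 8 genes with a window, counted by gene, and in 72.3% of 32851 windows of all genes, counted by window. The units differ, here and for the forms below, since Neurod4 has 2 windows and counts if either holds a match. Neurog2 and Atoh1 had none, and Neurod4 had 1 in 1 of its 2 windows. Of the forms of the E-box counted, CAGCTG stood in 2 of the 8 genes (Neurod4 and Neurog3) and in 16.3% of all windows. CAGATG or CATCTG stood in 1 (Neurod2) and in 17.2%, CATATG in 2 (Neurod1 and Neurod2) and in 3.91%, and CACGTG in 0 and in 7.15%. A match is a description of letters and not of binding, which was not measured here.

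In base composition the windows of genes with high and with low levels overlapped. The Neurod6 window, of the gene with the highest level, was 46.3% G and C with 3 CpG sites, while that of Neurog1, at 0.537 RPKM, was 69.3% with 32 CpG sites. The windows of the genes listed at 0 had 68.3% (Neurog3) and 56.7% (Atoh1). The median of all windows was 52.7% with 7 CpG sites.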

How the data were processed

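RNA was sequenced from 3 libraries of embryonic cortex, per the labels. The authors deposited 1 column of mean RPKM. The submitters' processing notes name, for the build mm9 (NCBIM37) and with no role given, HTSeq 0.6.0, DESeq 1.16.0 and Cuffdiff 2.0.2 as well as TopHat2 2.0.9 and Bowtie2 2.1.0. Strand, read length and filters are not given in the sources used here. Symbols, spans and exon lengths came from GENCODE M21 (32938 of 37991 IDs matched), on a later build, so gene coordinates of the files are not given.

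Low values of multi-exon genes times span fell within 0.5% of the worth of 1 read in 658 of 737 cases (89.3%), and times exon length in 35 of 407 (8.60%), on peaks that were found with span. The peaks gave the library totals, without telling which library is which. Reads were RPKM times span times the summed depth. The peak finder was tested on simulated data. A gene at 0 is said to be listed at 0. Values per kilobase of exon take all reads to lie in exons.

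The genes and lists were chosen with earlier results of these data known. Named are all 9 genes, all E protein, Id, Hes and Hey genes and, of other lists, the 3 highest and the lowest detected, or all of 6 or fewer; of the marker lists, extremes and genes at 0. Of the genes fixed for the marker lists, 1 is not reported here and is in no count. Pairs next to each other in level and Fam241b, Cerkl, Gm26755 and Hprt were named after their values were seen. Log2 differences used a pseudocount of 0.1. Python 3.11.15, pandas 2.3.3, numpy 2.4.6 and scipy 1.17.1 were used. Alternatives were other thresholds (0.5 and 2 RPKM), pseudocounts (1 and 0.01), backgrounds, exon length, a filter at 0.1 RPKM and a sum without mitochondrially encoded genes.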

Additional observations from a re-analysis of the deposited data

How the results depend on the processing

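The count of 5 proneural and neuronal genes at 1 RPKM was 6 at 0.5 RPKM and per kilobase of exon, and 5 at 2 RPKM and after rescaling without mitochondrially encoded genes, which held 22.8% of the summed RPKM. Their median of 9.61 RPKM moved to 14.9 per kilobase of exon, to 29.7 with genes under 0.1 RPKM left out and to 12.4 after that rescaling. Of the other bHLH lists, the count of other neural bHLH genes fell from 5 to 3 at 2 RPKM. The other 17 counts over lists and alternatives stayed within 1.5 times. On the log2(RPKM + 0.1) scale none of the 8 differences between pairs fixed beforehand changed sign under 24 alternatives. Neurog1 and Neurod4, a pair named after the values were seen, are not among these 8. Their ratio went from 1.61 as deposited to 0.445 per kilobase of exon, a change of order. Of the 8 pairs, 7 had both genes detected. For these, 12 of 21 alternatives moved the difference by more than counting error, such as Neurod1 minus Neurod4 from 4.48 to 2.99 with a pseudocount of 1. Neurog2 minus Neurog3, with Neurog3 at 0, has no counting error and is set by the pseudocount (8.22, 4.94 with 1 and 11.54 with 0.01). The percentile of Neurod4 ran from 23.7 among genes at 0.1 RPKM or more to 71.9 among all listed, and that of Neurod6 from 99.8 to 99.9. No replicate could be left out of 1 mean column. No paired analysis was possible because no column holds a single library. Depth limits the genes at 0 and those with few reads, such as Ptf1a (1 read), Twist2 (3), Hes3 (5) and, to a lesser degree, Neurog1 (170), while the spread between libraries is unknown throughout.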
